A study of Mus musculus with 6 samples.

Results

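The genes described here encode inhibitory checkpoint receptors of lymphocytes together with the costimulatory receptors of the same families. They were chosen by name, with earlier results of these data known. The list holds 8 coinhibitory receptor genes (Ctla4, Pdcd1, Lag3, Havcr2, Tigit, Cd160, Btla and Cd200r1) and 2 costimulator genes (Icos and Cd28). Each of the 10 had 1 row, matched through its Entrez number, among the 25206 rows measured. Expression arrays compared 2 groups of a mouse group 2 innate lymphoid cell (ILC2) line, 3 arrays with a CRISPR guide against Cbfb (knockout) and 3 with a non-target guide (control). Cells of both groups were of the C57BL/6J background, grew with 10 ng/ml of the cytokines IL-2 and IL-33, carried the LentiV2CRISPRGFP lentiviral construct, and were sorted as GFP+ at 6 days after transduction. The labels do not give the tissue the line came from, the number of guides, or whether the samples of a group were separate cultures, so a p-value here speaks only for the spread among these samples, and that spread may be technical.

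Checkpoint receptors sit on the surface of activated lymphocytes and bind ligands on neighbouring cells. CTLA-4, CD28 and ICOS are sister receptors of the immunoglobulin superfamily: CD28 and ICOS recruit PI3-kinase and promote activation, whereas CTLA-4 competes with CD28 for the ligands CD80 and CD86. PD-1, TIGIT, BTLA and CD200R1 restrain signalling through their cytoplasmic tails, and in ILC2s PD-1 is known to limit proliferation and cytokine release, while ICOS and its ligand, both made by ILC2s, promote survival and cytokine production. Core-binding factor beta, the protein that Cbfb encodes, stabilises RUNX transcription factors on DNA. The comparison asks how these receptor genes read when that factor is targeted.

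Values are log2 expression values in which 3.6 is the median of all group means. That number is no detection limit, and levels of different genes are not ordered against each other because probes differ in brightness. The medians of the 6 arrays lay between 3.57 and 3.63. Cbfb itself read 7.88, 7.69 and 7.91 in knockout arrays against 8.53, 8.73 and 8.70 in control arrays, so 56.4% of the control RNA signal remained. The arrays did not measure how much of the protein was lost. Of 12 measured ILC2 markers 2 rose, 3 fell and 7 did not pass at an adjusted p of 0.05. The share called was 41.7%, against 9.75% of all rows and 18% of rows whose higher group mean lay above 3.6. Gata3 (10.68 in knockout and 10.58 in control) and Klrg1 (11.36 in knockout and 11.37 in control) were among those that did not pass. Rora rose 4.65-fold and Bcl11b 2.20-fold, while Il7r (-0.56), Il5 (-0.33) and Id2 (-0.35) fell on the log2 scale, of which Il5 missed the threshold in 6 of 6 and Id2 in 5 of 6 leave-one-out fits. Of 14 measured T cell markers 7 read under 3.6 in both groups, among them Cd3e (2.72 in knockout and 2.71 in control) and Cd4 (2.57 in knockout and 2.36 in control). The other 7 read above it in at least 1 group, among them Trbc2 (6.34 in knockout and 6.06 in control), Lat (6.25 in knockout and 6.71 in control) and Cd3g (5.31 in knockout and 5.16 in control).

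Of the 10 receptor genes, 4 fell in the knockout (Ctla4, Havcr2, Tigit and Icos), Cd200r1 rose, and 5 did not pass the test at an adjusted p of 0.05 (limma, Benjamini-Hochberg over all 25206 rows). Over all rows 4.24% were called lower and 5.51% higher in the knockout, 9.75% in either direction. The median difference, knockout minus control, was -0.45 over the 10 genes on the log2 scale and -0.0067 over all rows. For 7 of the 10 genes no knockout array overlapped the control arrays, against 27.5% of all rows. Of 6 receptor genes whose higher group mean lay above 3.6, 5 passed, where 18% of the 12903 rows above that level did (7.77% lower and 10.3% higher), and the other 4 (Lag3, Cd160, Btla and Cd28) read under 3.6 in both groups. Because the genes were chosen with earlier results of these data known, these shares do not test the list. In a bulk culture, fewer cells that express a gene and less RNA per cell cannot be told apart.

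**Figure D1:**
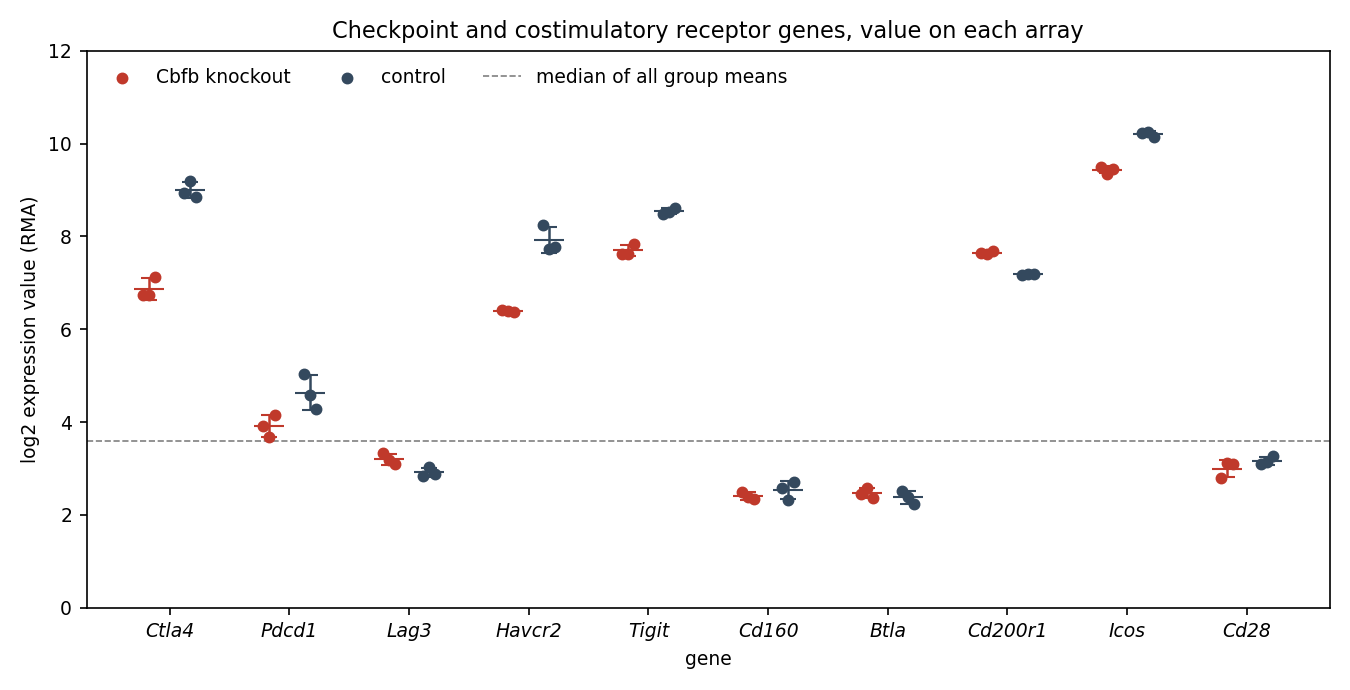
Log2 expression values (vertical axis) of the 10 receptor genes on each array, with knockout points in red to the left of control points in dark blue. Horizontal ticks and bars give the mean and SD of 3 arrays, and the dashed line marks 3.6, the median of all group means. Ctla4, Havcr2, Tigit and Icos lie lower in the knockout with no overlap, Cd200r1 lies higher, and Lag3, Cd160, Btla and Cd28 stay below the line in both groups.

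Ctla4, which encodes the inhibitory counterpart of CD28, had the largest difference among the receptor genes. It read 6.74, 6.73 and 7.13 in the knockout arrays against 8.94, 9.19 and 8.86 in the control arrays. The highest knockout array lay 1.73 log2 units below the lowest control array. The means were 6.87 ± 0.23 in knockout and 9.0 ± 0.17 in control (SD, n = 3 arrays each), a 4.38-fold fall (95% interval 3.51 to 5.45, limma adjusted p = 0.000152). Ranked by signed difference, Ctla4 stood 12 from the most negative of the 25206 rows.

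Icos, the costimulator gene whose product binds ICOS ligand, also fell. It read 9.49, 9.35 and 9.46 in knockout arrays and 10.23, 10.25 and 10.15 in control arrays, 2 tight groups that did not overlap. The fall was 1.71-fold (95% interval 1.501 to 1.96, limma adjusted p = 0.00121), from means of 9.43 ± 0.074 in knockout and 10.21 ± 0.053 in control. Cd28, which encodes the primary costimulator of T cells, read 2.79, 3.11 and 3.09 in knockout arrays and 3.09, 3.15 and 3.26 in control arrays. These groups overlapped, and the difference of -0.17 did not pass (95% interval -0.42 to 0.082, limma adjusted p = 0.427).

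The 3 genes lie side by side on mouse chromosome 1 in the order Cd28, Ctla4 and Icos, with no other protein-coding gene between them in the RefSeq table of assembly GRCm38.p6. Their changes were therefore compared within each array. The value of Ctla4 minus that of Icos was -2.75, -2.62 and -2.33 in knockout arrays and -1.29, -1.06 and -1.29 in control arrays. The groups of this difference did not overlap: the change of Ctla4 minus that of Icos was -1.35 on the log2 scale. Ctla4 differed from Cd28 by -1.96 in its change, and Icos differed from Cd28 by -0.61. A two-sided exact permutation test gave p = 0.1 for each of the 3 pairs (adjusted p = 0.1 over the 3 pairs), the smallest p that 3 arrays against 3 can give, so this design cannot pass the threshold. Cd28 reads low, where RMA compresses differences, so its own change may be understated and its 2 comparisons with Ctla4 and Icos overstated in size.

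Havcr2 encodes TIM-3, a receptor that binds galectin-9 and other ligands and marks chronically stimulated lymphocytes. It read 6.42, 6.40 and 6.37 in knockout arrays against 8.25, 7.74 and 7.78 in control arrays. The knockout arrays agree within 0.05, and control replicate 1 is the highest of the controls. Havcr2 fell 2.88-fold (95% interval 2.31 to 3.59, limma adjusted p = 0.000573) and stood 37 from the most negative row.

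Tigit, whose product binds the poliovirus receptor and competes with the activating receptor CD226, read 7.63, 7.63 and 7.84 in knockout arrays. Control arrays read 8.49, 8.52 and 8.61, all above every knockout array. The fall was 1.79-fold (95% interval 1.54 to 2.07, limma adjusted p = 0.00144), with means of 7.70 ± 0.12 in knockout and 8.54 ± 0.062 in control. Cd226 itself read 7.77 ± 0.087 in knockout and 8.11 ± 0.11 in control, a difference of -0.34 that did not pass (limma adjusted p = 0.0631).

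Because RUNX proteins are the partners of the targeted factor, promoter windows of the genes that fell are shown with the RUNX core letters. The windows are RefSeq sequences of build GRCm38.p6, 300 bases each, with 250 before the annotated start and 50 from it on. They were available for 6 of the 10 genes, and Ctla4, Havcr2 and Tigit are those among the genes that fell. Capitals mark the letters TGTGGT or TGCGGT, or either on the opposite strand (ACCACA or ACCGCA), and these words do not overlap in the windows shown.
Ctla4, chr1:60908775-60909074, plus strand: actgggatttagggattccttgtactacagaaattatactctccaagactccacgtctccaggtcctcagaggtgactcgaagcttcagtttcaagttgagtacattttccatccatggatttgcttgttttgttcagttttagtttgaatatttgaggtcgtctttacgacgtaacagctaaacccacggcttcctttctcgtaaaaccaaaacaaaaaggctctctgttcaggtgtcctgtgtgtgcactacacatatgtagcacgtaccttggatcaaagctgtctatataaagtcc
Havcr2, chr11:46454681-46454980, plus strand: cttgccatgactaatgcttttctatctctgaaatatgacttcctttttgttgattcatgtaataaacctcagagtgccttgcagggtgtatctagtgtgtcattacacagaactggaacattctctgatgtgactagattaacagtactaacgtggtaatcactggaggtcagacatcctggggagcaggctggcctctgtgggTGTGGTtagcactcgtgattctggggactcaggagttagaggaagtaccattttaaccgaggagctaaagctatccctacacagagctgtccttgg
Tigit, chr16:43664135-43664434, minus strand: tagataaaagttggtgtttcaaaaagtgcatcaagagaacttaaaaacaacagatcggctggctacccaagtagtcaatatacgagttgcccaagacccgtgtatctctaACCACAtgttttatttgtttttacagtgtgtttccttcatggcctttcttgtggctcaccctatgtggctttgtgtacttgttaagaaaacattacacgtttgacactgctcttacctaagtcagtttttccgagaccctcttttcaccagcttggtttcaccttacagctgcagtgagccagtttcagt
The Havcr2 window holds TGTGGT beginning 46 bases before the start, and the Tigit window holds it on the opposite strand beginning 140 bases before the start. The Ctla4 window holds neither word. Among the genes that did not pass, Btla and Cd160 also had a match and Pdcd1 had none. Of all 32851 RefSeq windows of this length, 22.4% held at least 1 of the 2 words, against 5 of the 7 windows of these genes. Both windows of Cd160 are among the 5, so by gene 4 of 6 had a match. These 4 include Btla and Cd160, which did not pass. A match describes the letters alone, and the arrays measured no binding.

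Pdcd1, the gene of PD-1, read 3.91, 3.69 and 4.15 in knockout arrays and 5.04, 4.58 and 4.29 in control arrays. The highest knockout array and the lowest control array were 0.14 apart, the narrowest gap among the receptor genes that did not overlap after that of Lag3. The means were 3.92 ± 0.23 in knockout and 4.64 ± 0.38 in control, and the difference of -0.72 did not pass (95% interval -1.17 to -0.27, limma adjusted p = 0.0561). It passed in 4 of 16 alternatives, among them the fit without control replicate 3 (difference -0.89, limma adjusted p = 0.0342). Another of the 4 was the main test read at a threshold of 0.1. Over the 16 alternatives the limma adjusted p lay between 0.0246 and 0.234.

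Cd200r1 went the other way. It encodes the inhibitory receptor for CD200, which signals through the adaptor DOK2. Knockout arrays read 7.65, 7.63 and 7.68, and control arrays read 7.16, 7.20 and 7.20. The spread within a group was at most 0.05, and Cd200r1 rose 1.38-fold (95% interval 1.23 to 1.56, limma adjusted p = 0.00769). Its neighbour on chromosome 16, Cd200r4, encodes a related receptor that in mice pairs with an activating adaptor. Cd200r4 read 6.60, 6.56 and 6.87 in knockout arrays against 6.97, 7.38 and 7.34 in control arrays and fell 1.47-fold (limma adjusted p = 0.0408). Leaving out 1 array at a time ended this call in 4 of 6 fits, with adjusted p from 0.0221 to 0.135. The relatives Cd200r2 (3.57 in knockout and 3.32 in control) and Cd200r3 (3.17 in knockout and 3.44 in control) did not pass. These genes are close in sequence, and the values alone do not separate signal from their shared parts.

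The remaining receptor genes read low in both groups. Lag3, whose product binds MHC class II, read 3.33, 3.18 and 3.10 in knockout arrays against 2.85, 3.03 and 2.89 in control arrays, leaving a gap of 0.07 between the groups. The difference of 0.28 missed the threshold (95% interval 0.059 to 0.50, limma adjusted p = 0.12). Cd160, a receptor for HVEM, read 2.50, 2.38 and 2.34 in knockout arrays and 2.59, 2.33 and 2.70 in control arrays. Btla, the other inhibitory receptor for HVEM, read 2.45, 2.59 and 2.37 in knockout arrays and 2.51, 2.39 and 2.23 in control arrays. Both pairs of groups overlapped, with 95% intervals of the difference of -0.39 to 0.12 for Cd160 and -0.15 to 0.33 for Btla. No detection calls tell signal from background at these values, and differences there can be understated.

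**Figure D2:**
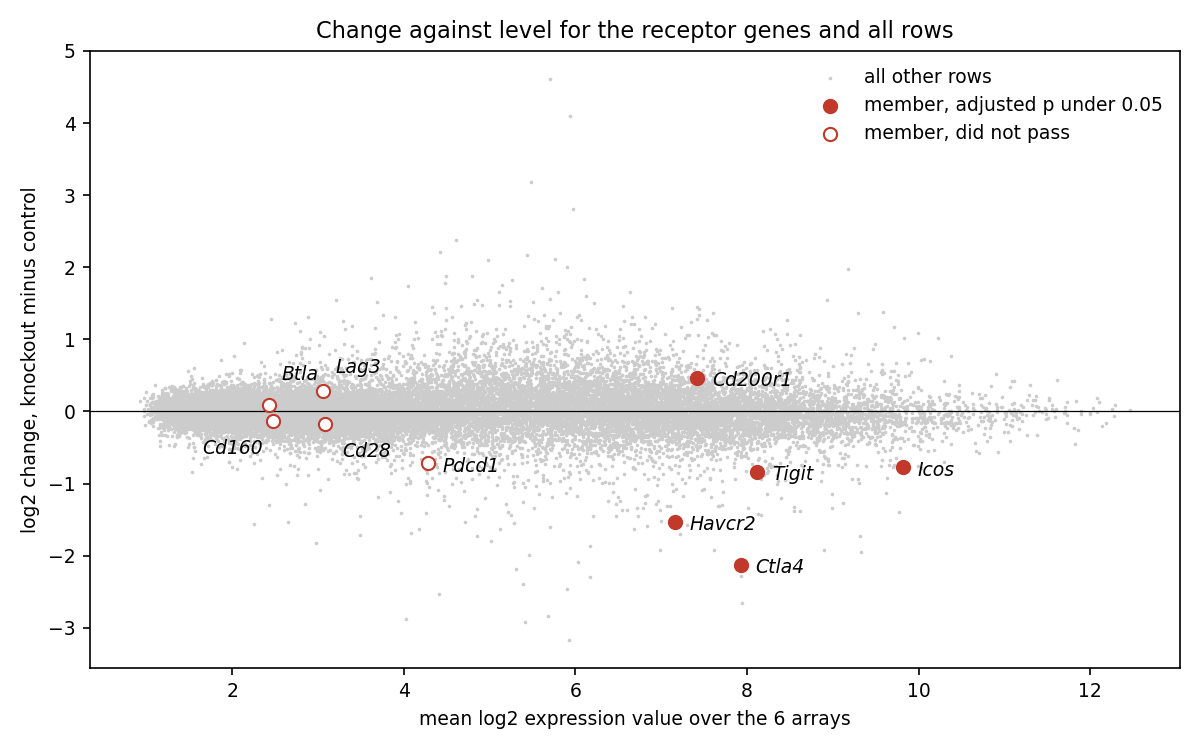
Mean log2 expression value over the 6 arrays (horizontal axis) against the log2 change, knockout minus control (vertical axis), for all 25206 rows in grey and the 10 receptor genes in red. Filled points passed an adjusted p of 0.05 and open points did not. Ctla4 at -2.13 and Havcr2 at -1.53 have the 2 most negative changes of the receptor genes, while Lag3, Cd160, Btla and Cd28 lie within the grey band at low values.

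Ligands of these receptors moved in both directions. Among 15 with a row, 3 fell, 2 rose and 10 missed the threshold, with a median difference of 0.19. The share called was 33.3%, against 9.75% of all rows and 18% of rows whose higher group mean lay above 3.6. Among the 15 ligand genes, 4 read under 3.6 in both groups. Cd86, a ligand shared by CTLA-4 and CD28, read 5.33, 5.07 and 5.27 in knockout arrays against 3.80, 4.29 and 3.63 in control arrays. It rose 2.49-fold (limma adjusted p = 0.00262), opposite in sign to Ctla4. Cd80, the other ligand of this pair, read 5.80 ± 0.17 in knockout and 6.18 ± 0.17 in control, a difference of -0.38 that did not pass (limma adjusted p = 0.104).

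Icosl, the gene of ICOS ligand, fell, as its receptor gene did. It read 6.48, 6.72 and 6.74 in knockout arrays against 7.35, 7.16 and 7.17 in control arrays, a fall of 1.49-fold (limma adjusted p = 0.0117). The PD-1 ligand gene Pdcd1lg2 rose 1.32-fold (limma adjusted p = 0.0366), a call that 5 of 6 leave-one-out fits did not make (adjusted p from 0.0436 to 0.129), and the other PD-1 ligand gene, Cd274, differed by 0.21 and did not pass (limma adjusted p = 0.235).

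Tnfsf14, the gene of LIGHT, a cytokine that shares the receptor HVEM with BTLA and CD160, fell 2.05-fold (limma adjusted p = 0.000875). Its values were 5.02, 5.08 and 4.95 in knockout arrays and 6.24, 5.97 and 5.95 in control arrays. The HVEM gene Tnfrsf14 read 6.14 ± 0.055 in knockout and 5.87 ± 0.12 in control and did not pass (limma adjusted p = 0.125). Lgals3, which encodes galectin-3, a reported ligand of LAG-3, fell 1.61-fold (limma adjusted p = 0.00583). Lgals9, the gene of the TIM-3 ligand galectin-9, read 10.89 ± 0.051 in knockout and 10.66 ± 0.10 in control and did not pass (limma adjusted p = 0.159). Cd200, the ligand gene of CD200R1, read 1.99, 1.97 and 2.05 in knockout arrays and 1.74, 1.99 and 1.99 in control arrays.

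**Figure D3:**
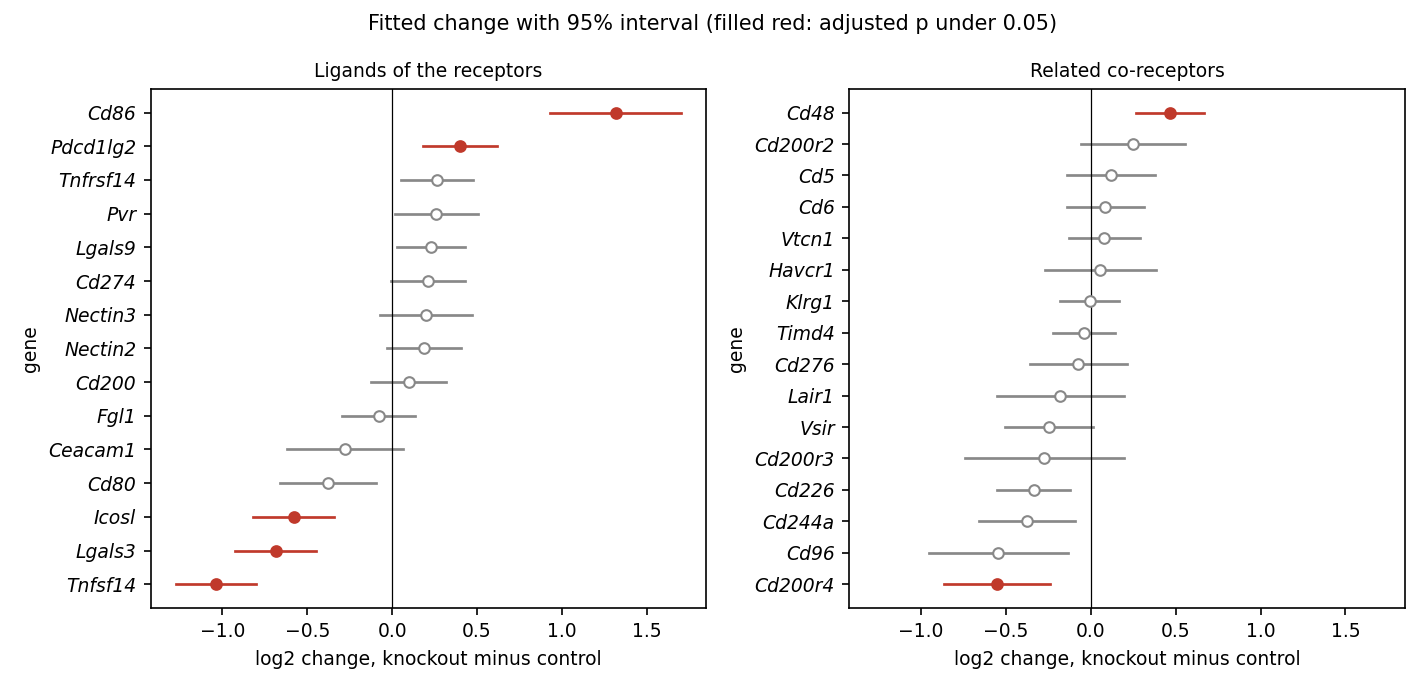
Fitted log2 change, knockout minus control (horizontal axis), with its 95% interval for 15 measured ligand genes (left) and 16 measured related co-receptor genes (right). Filled red points passed an adjusted p of 0.05. Cd86 at 1.32 and Tnfsf14 at -1.04 lie furthest from 0 among the ligands, and Cd48 and Cd200r4 alone passed among the related receptors.

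Among 16 measured co-receptors related to these families, 14 did not pass (median difference -0.057). The 2 called, Cd48 that rose and Cd200r4 that fell, are a share close to the 9.75% of all rows. Cd48, a ligand of the receptor CD244, read 8.13, 8.15 and 8.26 in knockout arrays against 7.73, 7.79 and 7.62 in control arrays and rose 1.38-fold (limma adjusted p = 0.0135). Without control replicate 3 Cd48 missed the threshold (limma adjusted p = 0.0528). Cd96, another receptor of the poliovirus receptor family's ligands, differed by -0.54 and did not pass (limma adjusted p = 0.104). Klrg1, a lectin-type inhibitory receptor gene of mature ILC2s, differed by -0.0067 and did not pass.

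Partners that carry signals from these receptors or govern their trafficking mostly did not pass. Among 23 such genes, 3 fell, 0 rose and 20 missed the threshold (median difference -0.063). The share called was 13%, against 9.75% of all rows and 18% of rows whose higher group mean lay above 3.6. Only 3 of the 23 read under 3.6 in both groups, so 18% is the closer background. Pik3cd (-0.32) and Pik3ca (-0.33), catalytic subunits of the PI3-kinase that CD28 and ICOS recruit, and the Src-family kinase gene Fyn (-0.32) fell. Their limma adjusted p lay between 0.0409 and 0.0488. With 1 array left out at a time, Pik3cd and Fyn missed the threshold in 6 of 6 fits and Pik3ca in 5 of 6. The phosphatase genes Ptpn6 (3.96 in knockout and 3.77 in control), Ptpn11 (6.49 in knockout and 6.55 in control) and Inpp5d (9.28 in knockout and 9.27 in control), which act downstream of inhibitory tails, did not pass. Neither did Dok2 (8.72 in knockout and 8.87 in control), the adaptor of CD200R1.

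Of the transcription factors tied to checkpoint gene expression, 23 had a row. Of these 8 fell, 3 rose and 12 missed the threshold (median difference -0.20). The share called was 47.8%, against 9.75% of all rows and 18% of rows whose higher group mean lay above 3.6. Among the 23 factors, 2 read under 3.6 in both groups. Nr4a3 and Nr4a1, nuclear receptors induced by receptor signalling and linked to checkpoint gene expression in exhausted T cells, read 2.59 ± 0.24 and 6.03 ± 0.12 in knockout against 5.47 ± 0.17 and 7.95 ± 0.29 in control. These were falls of 7.33-fold and 3.79-fold (limma adjusted p = 7.06e-05 and 0.000315).

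Irf4, a factor induced by antigen receptor and cytokine signals, read 8.46, 8.30 and 8.20 in knockout arrays against 9.62, 9.68 and 9.68 in control arrays and fell 2.53-fold. Rel, the gene of the NF-kB subunit c-Rel, fell 6.32-fold, and Hif1a, the oxygen-regulated factor gene, fell 1.71-fold. Maf, linked to IL-10 and coinhibitory receptor expression in T cells, was the member of this list that rose furthest, 1.91-fold, with 9.95, 9.94 and 9.98 in knockout arrays against 9.07, 8.98 and 9.01 in control arrays. Limma adjusted p lay between 0.000194 and 0.00158 for these 4 genes. Batf, Tox and Nfatc2, each connected to checkpoint genes in T cells, did not pass (differences -0.29, 0.30 and 0.26). The list mixes factors that induce and factors that repress. It was chosen with earlier results of these data known, those of Nr4a1, Nr4a3 and Maf among them.

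**Figure D4:**
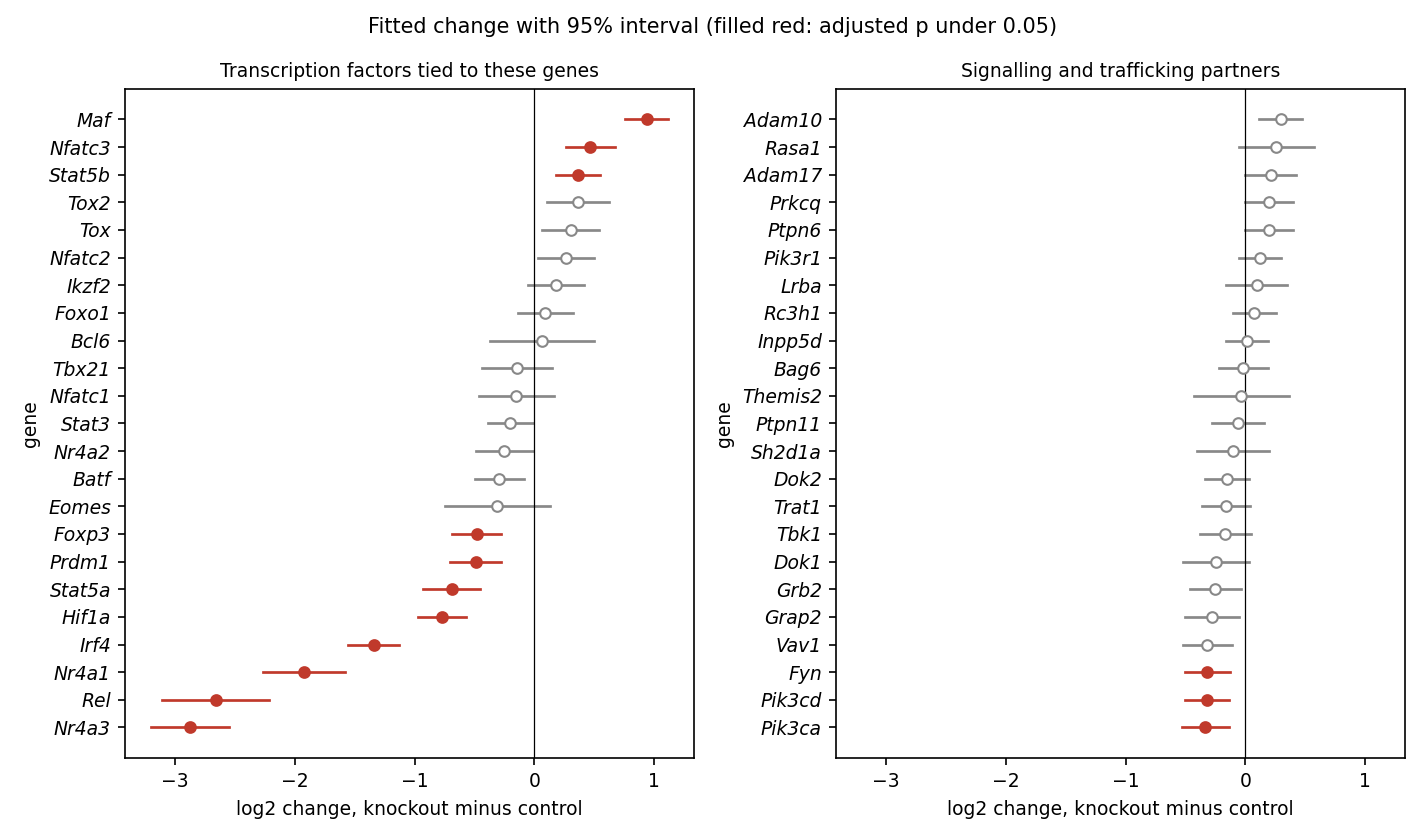
Fitted log2 change, knockout minus control (horizontal axis), with its 95% interval for 23 measured transcription factor genes (left) and 23 measured signalling and trafficking genes (right), on 1 shared scale. Filled red points passed an adjusted p of 0.05. Nr4a3, Rel, Nr4a1 and Irf4 lie below -1, Maf lies at 0.94, and all signalling and trafficking genes lie between -0.33 and 0.29.

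The rows whose pattern over the 6 arrays was most like that of Ctla4 were ranked by Euclidean distance between values centred on each gene's mean. Nearest were Ier3, an immediate early gene (distance 0.38), Cd300a, an inhibitory receptor gene (0.45), P2ry2, a nucleotide receptor gene (0.50), the keratin gene Krt23 (0.50) and Dgat1, a triglyceride-synthesising enzyme gene (0.55). Nearest to Icos were Gm19585, a long non-coding RNA (0.076), Dapp1, an adaptor that binds PI3-kinase lipids (0.091), the autophagy gene Gabarapl1 (0.10), Sting1, the gene of an innate signalling adaptor (0.11), and Sde2 (0.11). With 6 arrays in 2 groups, these distances describe mainly the size of the difference between the groups.

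Markers of other cell types were read beside these results, since T cells and natural killer (NK) cells carry several of the same receptors. Of 14 T cell markers with a row, 2 fell and 12 missed the threshold (14.3% called, against 9.75% of all rows), and their summed linear signal was 332 to 359 in knockout arrays against 381 to 390 in control arrays. Those that fell were Trac (5.06, 5.10 and 5.05 in knockout against 5.64, 5.76 and 5.63 in control) and Foxp3, the regulatory T cell factor gene (3.89, 3.88 and 3.96 in knockout against 4.47, 4.44 and 4.27 in control). Both fell, as did Ctla4, Havcr2, Tigit and Icos, while the median difference over the 14 T cell markers was 0.023. Foxp3 missed the threshold without control replicate 2 (limma adjusted p = 0.0559). A second background for each marker list is the 18% called among rows whose higher group mean lay above 3.6. Of 7 measured NK cell markers 3 fell (Klrk1, Prf1 and Gzmb) and none rose (42.9% called, against 9.75% of all rows). Their summed signal was 5042 to 5555 in knockout arrays against 6461 to 7039 in control arrays. Gzmb read 11.60 in knockout and 12.06 in control, and Gzma, which did not pass, read 10.94 in knockout and 11.11 in control. These brightest genes of the NK list make up most of its sum. The NK receptor gene Ncr1 read 2.48 in knockout and 2.41 in control.

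Of 5 measured B cell markers Ighm rose and the others did not pass (20% called, against 9.75% of all rows), with summed signals of 83.6 to 92.9 in knockout and 41.3 to 49.7 in control. Of 9 macrophage and dendritic cell markers Itgax fell, or 11.1% (79.3 to 90.7 in knockout against 108 to 126 in control for the summed signal). Cpa3 fell and Gata2 rose among 8 markers of mast cells and basophils, or 25% (94.8 to 97.4 in knockout against 168 to 213 in control for the summed signal). Sums of linear values follow their brightest genes and do not show a shift of a whole list. Means in knockout and control were 3.96 and 6.87 for Cpa3, 5.98 and 4.51 for Ighm, and 4.77 and 5.81 for Itgax. Leaving out 1 array at a time ended the call of Gata2 in 5 of 6 fits, of Prf1 in 2 and of Gzmb in 1. The lowest value of any row was 0.66, so no gene read 0. Without detection calls, low marker values do not tell presence of a cell type from absence. The part of other cells in the changes of the receptor genes was not tested.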

How the data were processed

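Biotin-labelled total RNA of 6 samples was measured on arrays of 1 colour, per the labels' protocols. The deposited table holds log2 values for 25206 rows, and RMA and limma 3.14.4 stand in the submitters' processing notes, without their roles. The log2 scale was read from the values (0.66 to 12.51), and RMA quantile-normalises, so a shift common to most genes is hidden. Of the rows, 23185 had 1 gene symbol, all matched by Entrez number to RefSeq (GRCm38.p6). The genome build of the array is not given in the sources used here.

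Values were used as deposited, without a filter. The test was limma 3.58.1 in R 4.3.3 (knockout minus control, default prior, two-sided), with Benjamini-Hochberg adjustment over all 25206 rows and a threshold of 0.05. Precision is limited by the number of arrays. On simulated data for knockout against control (25206 rows), the test recovered 28.4% of 67 rows shifted by 0.5 log2 units, 82.1% of 67 shifted by 1 and 100% of 66 shifted by 2. The simulated noise was normal, with the SDs of the rows shuffled. It gave 142 calls in all, against 2457 in the real arrays, and fewer calls make the adjusted threshold stricter. These shares therefore do not measure the recovery in the real comparison.

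Named were all 10 receptor genes, Cbfb, up to 6 called genes with the smallest adjusted p in each of 4 pathway lists, called cell type markers, and the 5 rows nearest to Ctla4 and to Icos. Other list genes were named for their roles after their values were seen. Members and lists were chosen with earlier results of these data known. List genes without a named row were not analysed here. The labels do not state that replicate numbers pair the samples, and the main test did not pair them. Deviations of same-numbered samples correlated at 0.025, 0.0067 and 0.054, and those of different-numbered samples at -0.065 to 0.044. These few values cannot decide whether the samples were paired. The 16 alternatives covered a replicate block, leaving out each array, normalisation, filtering, prior, weights, moderation, threshold and the rows tested.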

Additional observations from a re-analysis of the deposited data

How the results depend on the processing

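Over 16 alternatives, the count of receptor genes lower in the knockout was 4 in 12 and 5 in 4, the fifth being Pdcd1, and the count higher was 1 in all 16. Ctla4, Havcr2, Tigit, Icos and Cd200r1 kept direction and call in each of the 16, with Cd200r1 at adjusted p 0.000506 to 0.0335. No difference of the 10 genes changed sign. The 3 differences in change within the Cd28, Ctla4 and Icos cluster were recomputed with 1 array left out and with quantile normalisation alone, and kept their sign there (Ctla4 minus Icos -1.47 to -1.26 when 1 array was left out). With rows above the median level alone, the median difference of the receptor genes was -0.81, since 4 low genes leave the set. The replicate block (replicate number as a block) left 4 lower and 1 higher and called 1745 of all rows, against 2457 without it, and 12 genes of the pathway lists lower and 4 higher, against 15 and 6. Leaving out 1 array called 1307 to 1837 of all rows (1478 and 1517 with knockout replicates 2 and 3 dropped in turn, 1307 and 1565 with control replicates 2 and 3 dropped in turn), 9 to 14 genes of the pathway lists lower and 2 to 6 higher. Without moderation 1254 rows and 8 lower pathway genes were called, at a threshold of 0.01 there were 966 rows, 8 lower and 2 higher pathway genes, and a trended and robust prior called 11 pathway genes higher. Of 35 other genes (Cbfb and the called genes of the pathway and marker lists), 21 lost the call in at least 1 alternative. The cause was not tested. Differences under about 0.5 on the log2 scale, and those of genes under 3.6, are at the limit of what 3 arrays a group and RMA values show. That size is no sharp line. Cd200r1 (0.47) kept its call, while Cd200r4 (-0.55) and Gata2 (0.76) lost theirs in 7 and 8 of 16 alternatives.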
